A study of Mus musculus with 3 samples.

Results

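Slit diaphragm and podocyte cytoskeleton genes were followed in single glomerular cells of mice with lupus nephritis (LN), with and without infused hUC-MSCs (mesenchymal stem cells of human umbilical cord), and of control mice. They were the 8 genes *Nphs1*, *Cd2ap*, *Magi2*, *Ptpro*, *Podxl*, *Synpo*, *Actn4* and *Wt1*, found by their symbols among the 32285 genes of the files. In podocyte-like cells of MRL/lpr mice, the *Nphs1* level was 2.09-fold lower than in control mice and the *Cd2ap* level 1.88-fold lower. Within the 2 clusters that make up these cells, which the libraries filled unequally, *Nphs1* was 1.60-fold and 1.31-fold lower and *Cd2ap* 1.54-fold and 1.49-fold lower. Over all podocyte-like cells the level of *Podxl* was 1.52-fold higher and that of *Actn4* 1.39-fold higher, and *Wt1* was at nearly the same level. In treated mice all of these levels were closer to those of untreated MRL/lpr mice than to those of control mice, apart from *Wt1*. Each group was 1 library, so none of these differences could be tested between mice. Disease, strain and library cannot be told apart in the comparisons with control mice, whose strain the labels do not name.

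Podocytes cover the glomerular capillaries with interdigitating foot processes. The slit diaphragm, the cell junction between neighbouring foot processes, is part of the filter that holds back protein from urine. Nephrin, the product of *Nphs1*, spans the slit, adaptor proteins join it to the actin bundles of the foot process, and injured podocytes are known to lose this architecture as protein leaks into urine.

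The MRL/lpr library came from female MRL/lpr mice, which carry the lpr mutation of *Fas* and develop a lupus-like disease, with LN at about 16 weeks of age. The library of MRL/lpr mice with hUC-MSCs came from such mice given 800000 hUC-MSCs through the tail vein, and both were taken on day 21. The labels call the other library a blank control. They do not name the strain of its mice, and the number of mice in a library is not given, so a library may hold 1 animal or a pool. Glomeruli were enriched from collagenase-digested kidneys by gradient centrifugation and differential adhesion, and about 8000 cells were captured per the methods, below the 10047 to 14385 cells per library kept here.

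Total unique molecular identifiers (UMIs), each standing for 1 captured RNA molecule, were 90812138 to 103319588 per library. After barcodes with under 1000 UMIs, over 10% mitochondrial UMIs or a doublet call were left out, 10047 control, 12516 MRL/lpr and 14385 treated cells remained, with a median of 4910, 3633.5 and 2726 UMIs per cell. Between 35 and 61 barcodes were shared by each pair of libraries, where 22.9 to 34.4 would be drawn in common at random. Podocyte-like cells were named from 10 markers that include none of the 8 genes. Of these, 9 were at least 2-fold higher than in other cells in each podocyte-like cluster, and the tenth, *Pla2r1*, was near 0 in all 3 libraries, at 0.732 to 3.56 UMIs per 1000000 UMIs of podocyte-like cells (counts scaled this way are written CPM). There were 2362 podocyte-like cells in control mice (23.5% of cells, 95% confidence interval 22.7 to 24.4), 821 in MRL/lpr mice (6.56%, 6.13 to 7.01) and 147 in treated mice (1.02%, 0.864 to 1.2). The treated share was 1.8% from 2500 UMIs on and 1.6% by at least 4 markers counted in a cell. These are shares of captured cells, and the share of podocytes in the kidney and their yield from each digest cannot be told apart. The median UMIs per podocyte-like cell were similar, at 6667.5, 7204 and 6874.

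Levels are given in CPM over the summed UMIs of a cell group of a library. Intervals are exact 95% Poisson intervals and cover counting error only, not the spread between mice. A ratio between libraries is called here where it reaches 2-fold, and the share of all genes past 2-fold is given beside it. In MRL/lpr over control, 6.66% of 12375 genes were at least 2-fold lower and 9.07% at least 2-fold higher, so that 1 of 8 genes lower and 0 higher is close to the background. In treated over control the shares were 9.64% lower and 10.8% higher of 11789 genes, and again 1 of the 8 was lower and 0 were higher. In treated over untreated MRL/lpr mice they were 4.45% and 4.1% of 10619 genes, and 0 of the 8 were called. The median log2 ratio of the 8 genes was 0.09, 0.24 and 0.05 in the same order, against −0.08, −0.06 and 0.01 over all genes.

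**Figure D1:**
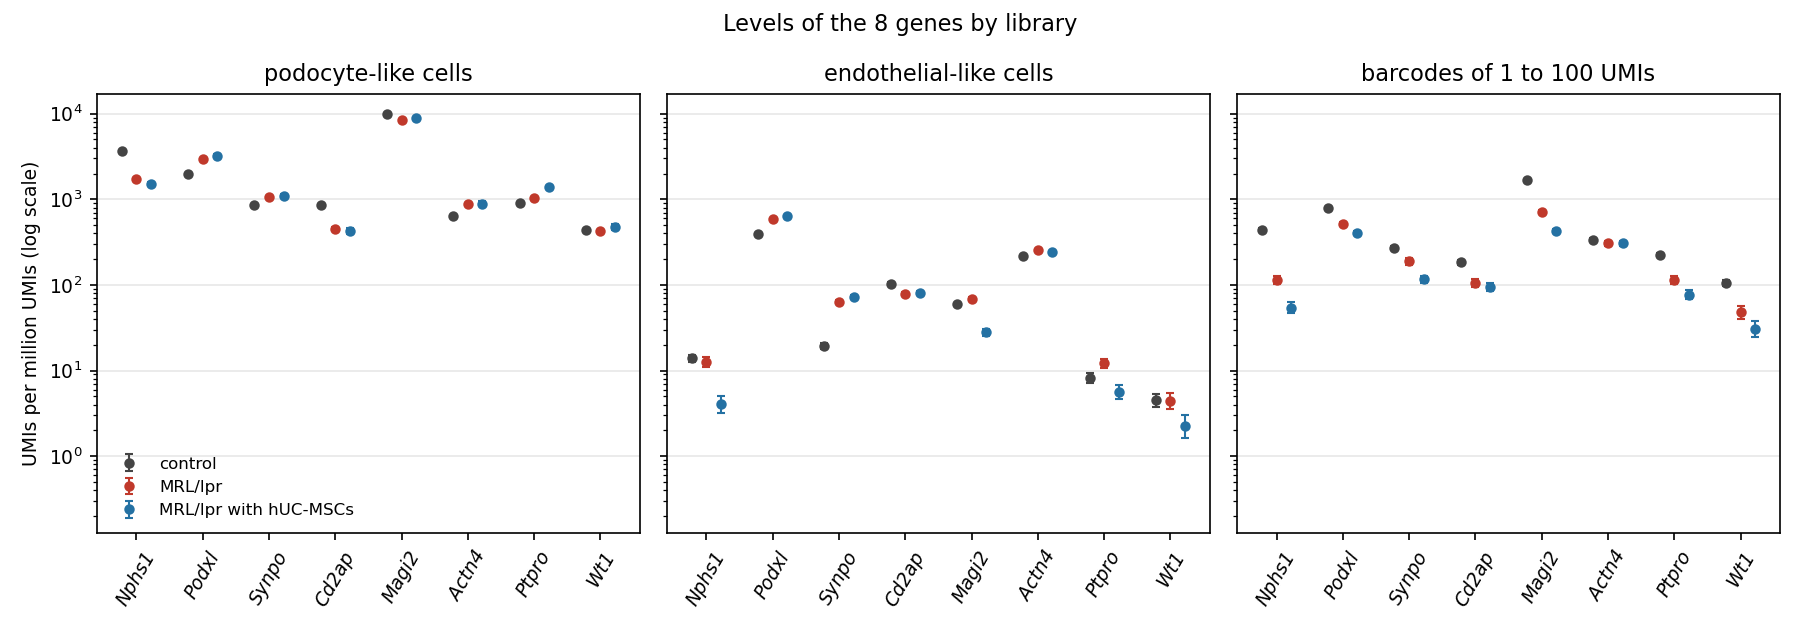
Level of each gene by library in podocyte-like cells, endothelial-like cells and barcodes of 1 to 100 UMIs, in CPM on a log scale. Points are libraries and bars are 95% Poisson intervals of counting error. In podocyte-like cells *Nphs1* stood at 3636 in control mice and at 1739 and 1521 in the MRL/lpr libraries, while *Podxl* was ordered the other way.

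*Nphs1* (chr7:30458315-30487223, plus strand, GRCm38) encodes nephrin, the adhesion protein whose extracellular parts meet across the slit. Its level in podocyte-like cells was 3636 CPM in control mice (3607 to 3665), 1739 in MRL/lpr mice (1706 to 1772) and 1521 in treated mice (1450 to 1595). Control mice were thus high and both MRL/lpr libraries low. The log2 ratio was −1.06 for MRL/lpr over control (−1.09 to −1.03), −1.26 for treated over control (−1.33 to −1.19) and −0.19 for treated over MRL/lpr (−0.27 to −0.12). Treated podocyte-like cells were 2.39-fold below control ones. Relative to the median ratio of all genes, the MRL/lpr value was −0.99, short of 2-fold. Within each of the 2 podocyte-like clusters it was also short of 2-fold, at −0.68 and −0.38. In molecules, a podocyte-like cell held 25.2, 13 and 11.6 *Nphs1* UMIs on average. With each cell thinned to 1000 UMIs, *Nphs1* was counted in 93.2%, 79.0% and 73.5% of podocyte-like cells, against 1.33%, 1.5% and 0.498% of endothelial-like cells, a type that should lack it. Without thinning, at median depths of 6667.5 to 7204 UMIs against 3022 to 4260, these shares were 99.5%, 98.7% and 95.9% against 6.39%, 5.75% and 1.56%. So the transcript was still counted in at least 95.9% of unthinned podocyte-like cells of each library. Split by depth into 3 equal classes of cells, control podocyte-like cells held 3472, 3587 and 3748 CPM from the shallowest class to the deepest. MRL/lpr mice held 1682, 1621 and 1839, below control in each class. Each class pools the 2 clusters. The level of MRL/lpr cells of cluster 4, 2337 CPM, was not below that of control cells of cluster 5, 2217.

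*Cd2ap* (chr17:42792951-42876665, minus strand) encodes an adaptor that joins nephrin to actin. It stood at 856 CPM in control mice (842 to 870), 456 in MRL/lpr mice (439 to 473) and 429 in treated mice (391 to 469). The order was that of *Nphs1*, with control mice above both other libraries. The log2 ratio was −0.91 for MRL/lpr over control (−0.97 to −0.85) and −0.998 for treated over control (−1.13 to −0.87). The treated level was 1.998-fold lower, just inside the 2-fold line, and the counting interval reaches past it. Treated and untreated MRL/lpr mice did not differ beyond counting error, at −0.09 (−0.23 to 0.05). After thinning, the transcript was counted in 53.7%, 35.3% and 29.9% of podocyte-like cells.

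*Magi2* (chr5:19227036-20704792, plus strand), a gene of 1477.757 kb, encodes a scaffold protein with PDZ domains beneath the slit diaphragm. Its level was 10015 CPM in control mice (9967 to 10064), 8471 in MRL/lpr mice (8398 to 8544) and 8817 in treated mice (8644 to 8992). Control mice were the highest and untreated MRL/lpr mice the lowest, with a log2 ratio of −0.24 for MRL/lpr over control and −0.18 for treated over control. Within the podocyte-like clusters the sign turned, to 0.17 in both for MRL/lpr over control and to 0.14 and 0.12 for treated over control. It was counted in 96.5% to 98.7% of thinned podocyte-like cells of all 3 libraries.

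*Ptpro* (chr6:137252319-137463233, plus strand) encodes a receptor-type tyrosine phosphatase of the foot process membrane, also known as GLEPP1. It was at 904 CPM in control mice (889 to 918), 1042 in MRL/lpr mice (1017 to 1068) and 1378 in treated mice (1311 to 1449). The treated library was the highest of the 3, above untreated MRL/lpr mice by 0.40 on the log2 scale (0.32 to 0.48) and above control mice by 0.61. Over all podocyte-like cells its distance between treated and untreated MRL/lpr mice was 1.32-fold, but in cluster 4 of the 2 podocyte-like clusters the log2 ratio was 0.02 (−0.15 to 0.19) and in cluster 5 it was 0.34 (0.25 to 0.44).

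*Podxl* (chr6:31519488-31563981, minus strand) encodes podocalyxin, the charged sialoglycoprotein of the free foot process surface. Its level was 1950 CPM in control mice (1929 to 1972), 2964 in MRL/lpr mice (2921 to 3007) and 3234 in treated mice (3130 to 3341). Here control mice were the lowest. The log2 ratio over control was 0.60 in MRL/lpr mice (0.58 to 0.63) and 0.73 in treated mice (0.68 to 0.78). A podocyte-like cell held 13.5, 22.1 and 24.7 *Podxl* UMIs on average, so that *Podxl* exceeded *Nphs1* in molecules counted in both MRL/lpr libraries and lay below it in control mice.

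*Synpo* (chr18:60593973-60660142, minus strand) and *Actn4* (chr7:28893248-28962340, minus strand) encode synaptopodin and α-actinin-4, which bundle and crosslink the actin of the foot process. *Synpo* stood at 848 CPM in control mice (834 to 862), 1059 in MRL/lpr mice (1033 to 1085) and 1086 in treated mice (1026 to 1149). *Actn4* stood at 634 (622 to 647), 884 (861 to 908) and 887 (832 to 943). Both were lowest in control mice, and for both the MRL/lpr libraries did not differ beyond counting error. The log2 ratio of MRL/lpr over control was 0.32 for *Synpo* and 0.48 for *Actn4*.

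*Wt1* (chr2:105126529-105173616, plus strand) encodes a zinc finger transcription factor needed for the podocyte's identity. It was at 434 CPM in control mice (424 to 445), 427 in MRL/lpr mice (411 to 444) and 472 in treated mice (433 to 514). The intervals of control and MRL/lpr mice overlapped, with a log2 ratio of −0.02 (−0.09 to 0.04). Among the 8 genes it had the log2 ratio nearest to 0 in that comparison over all podocyte-like cells. In cluster 4 alone *Magi2* was nearer, at 0.17 against 0.25 for *Wt1*.

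Because *Wt1* is known to act on podocyte promoters, the 250 bases before each gene's start were searched for GNGTGGGNG, a site that *Wt1* and related zinc finger factors can bind, on both strands. RefSeq windows (GRCm38.p6) were searched for 5 of the 8 genes, with 2 for *Magi2*. No window was searched for *Podxl*, *Synpo* and *Wt1*, so the matches say nothing of these genes. Windows of *Nphs1*, *Cd2ap* and *Actn4* and the first of *Magi2* held the letters, and the second of *Magi2*, at a start inside the gene, and that of *Ptpro* did not, where 12.7% of all 32851 windows did. The sites are shown on the strand of the gene with the match in capitals and 10 bases on each side. The first lies 227 bases before a start that is inside the *Nphs1* gene, in an annotated 5′ untranslated exon, and carries the motif on the printed strand. The others carry it on the opposite strand, and that of *Cd2ap* lies in an annotated exon of the gene.
*Nphs1*, chr7:30459821-30459849, plus strand: gagtacctgtGAGTGGGTGagagggaggt
*Cd2ap*, chr17:42876448-42876476, minus strand: tccaccccccCTCCCACCCccgcctgccg
*Magi2*, chr5:19226917-19226945, plus strand: ctcctccccaCCCCCACGCcacccgctca
*Actn4*, chr7:28962460-28962488, minus strand: acttgggcccCGCCCACACggggtgacgc
*Actn4*, chr7:28962415-28962443, minus strand: agcgcctgggCTCCCACGCtgggcgggca
A match describes these letters only. Genes that hold the site stood on both sides of control, with *Nphs1* and *Cd2ap* lower and *Actn4* higher in MRL/lpr mice.

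The podocyte-like cells fell into 2 clusters that the libraries filled unequally. Cluster 4 held 2147 control, 61 MRL/lpr and 41 treated cells, and cluster 5 held 215, 760 and 106. Genes that led cluster 4 included *H2-Q6* and *H2-Q7*, class I histocompatibility genes, and those of cluster 5 *Adm* and *Gas1*. Levels over all podocyte-like cells thus compare mostly cluster 4 of control mice with mostly cluster 5 of MRL/lpr mice. The part of this split in the ratios was not tested, and values within each cluster, chosen after seeing the data, are given instead.

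Within clusters, *Nphs1* was lower and *Podxl* higher in both MRL/lpr libraries, in each cluster. For *Nphs1*, cluster 4 gave 3749 CPM in control, 2337 in MRL/lpr and 1832 in treated mice, and cluster 5 gave 2217, 1699 and 1417. The log2 ratio of MRL/lpr over control shrank to −0.68 in cluster 4 and −0.38 in cluster 5, short of 2-fold, from −1.06 over all podocyte-like cells. Control cells themselves differed between clusters, since those of cluster 5 held less *Nphs1* than those of cluster 4. The treated over control ratio was −1.03 in cluster 4, which is past 2-fold, and −0.65 in cluster 5.

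*Cd2ap* had a log2 ratio of MRL/lpr over control of −0.62 in cluster 4 and −0.58 in cluster 5. For *Podxl* the ratios within clusters were larger than over all podocyte-like cells. Its level in cluster 4 was 1982 CPM in control, 4320 in MRL/lpr and 3923 in treated mice, and the log2 ratio of MRL/lpr over control was 1.12, past 2-fold. In cluster 5 the ratio was 0.89. *Ptpro*, at 0.21 over all podocyte-like cells, was at 0.87 in cluster 4 and 0.53 in cluster 5.

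*Magi2*, whose ratios to control were negative over all podocyte-like cells and positive in each cluster, stood at 10228 CPM in control cells of cluster 4 and at 7342 in those of cluster 5. *Synpo* (0.44 and 0.60) and *Actn4* (0.46 and 0.57) kept their direction in clusters 4 and 5, and *Wt1* gave 0.25 and −0.04. The median of the 8 ratios of MRL/lpr over control was 0.35 in cluster 4 and also 0.35 in cluster 5.

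**Figure D2:**
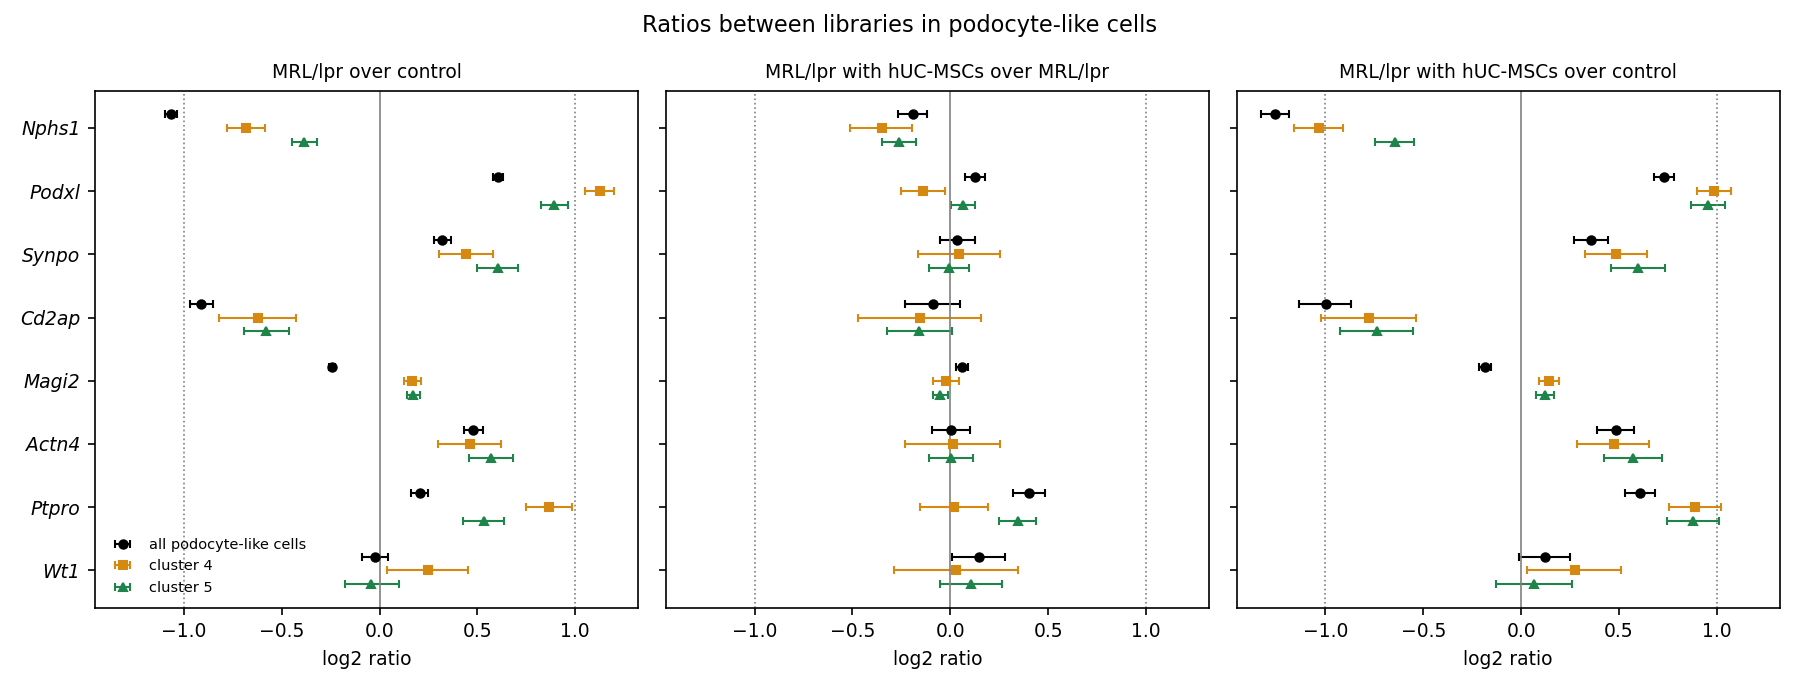
Log2 ratio of each gene between libraries, for all podocyte-like cells and for clusters 4 and 5 alone, with 95% intervals of counting error and dotted lines at 2-fold. *Nphs1* and *Cd2ap* lie left of 0 and *Podxl*, *Synpo*, *Actn4* and *Ptpro* right of it in both comparisons with control, and *Magi2* is left of 0 only for all podocyte-like cells.

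Other cells' RNA in podocyte-like cells moved with the group. The summed level of the 10 endothelial markers there was 78.9 CPM in control, 198 in MRL/lpr and 268 in treated mice, with no marker at 0. The 7 macrophage markers summed to 0.732, 40.4 and 81.1 CPM, with *Trem2* and *Ms4a7* at 0 in control mice. From the markers of other cell types, free RNA made up an estimated 2.53%, 6.12% and 6.51% of podocyte-like UMIs. With that expected part subtracted, the *Nphs1* log2 ratio was −1.03 for MRL/lpr over control and −1.20 for treated over control.

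Across cell groups of at least 50 cells, podocyte-like cells held the highest level of all 8 genes in MRL/lpr and treated mice and of 7 in control mice. *Nphs1* was the most restricted in control mice, 61.4-fold above the next group, proximal tubule-like cells. In MRL/lpr mice it was 14.0-fold above distal nephron-like cells, which stood at 124 CPM, and in treated mice 24.7-fold above unnamed cluster 26. The podocyte markers *Thsd7a*, *Rhpn1*, *Ildr2* and *Tcf21* were in those distal nephron-like cells at 1.18 times their level in barcodes of 1 to 100 UMIs, which hold free RNA. *Nphs1* was at 0.917 of the level that this factor gives. A factor above 1 cannot be read as a share of free RNA, and where these molecules came from was not tested.

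Of the 8 genes, 6 were at least 4-fold above every other group in each library, where 1.5% of 11565 genes in control, 1.19% of 10228 in MRL/lpr and 2.54% of 6192 in treated mice were. This count rests on the limits for cells. With barcodes from 500 UMIs on, a further unnamed cluster of shallow cells held *Nphs1* at 1244 CPM in control mice and the count was 0 in each library, and with doublets kept it was 0 in control and MRL/lpr mice and 6 in treated mice. The other 2 were *Cd2ap*, 2.56-fold above collecting duct-like cells in control mice and 1.5-fold in MRL/lpr mice, and *Actn4*. *Actn4* in control podocyte-like cells did not differ beyond counting error from mesangial-like cells (639 CPM) or the unnamed clusters 2 and 0 (656 and 612). In MRL/lpr mice it was 1.05-fold above mesangial-like cells (1.01 to 1.09). In treated mice its podocyte-like level was 887 CPM (832 to 943). That interval overlapped the one of unnamed cluster 17, at 839 CPM (816 to 863).

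**Figure D3:**
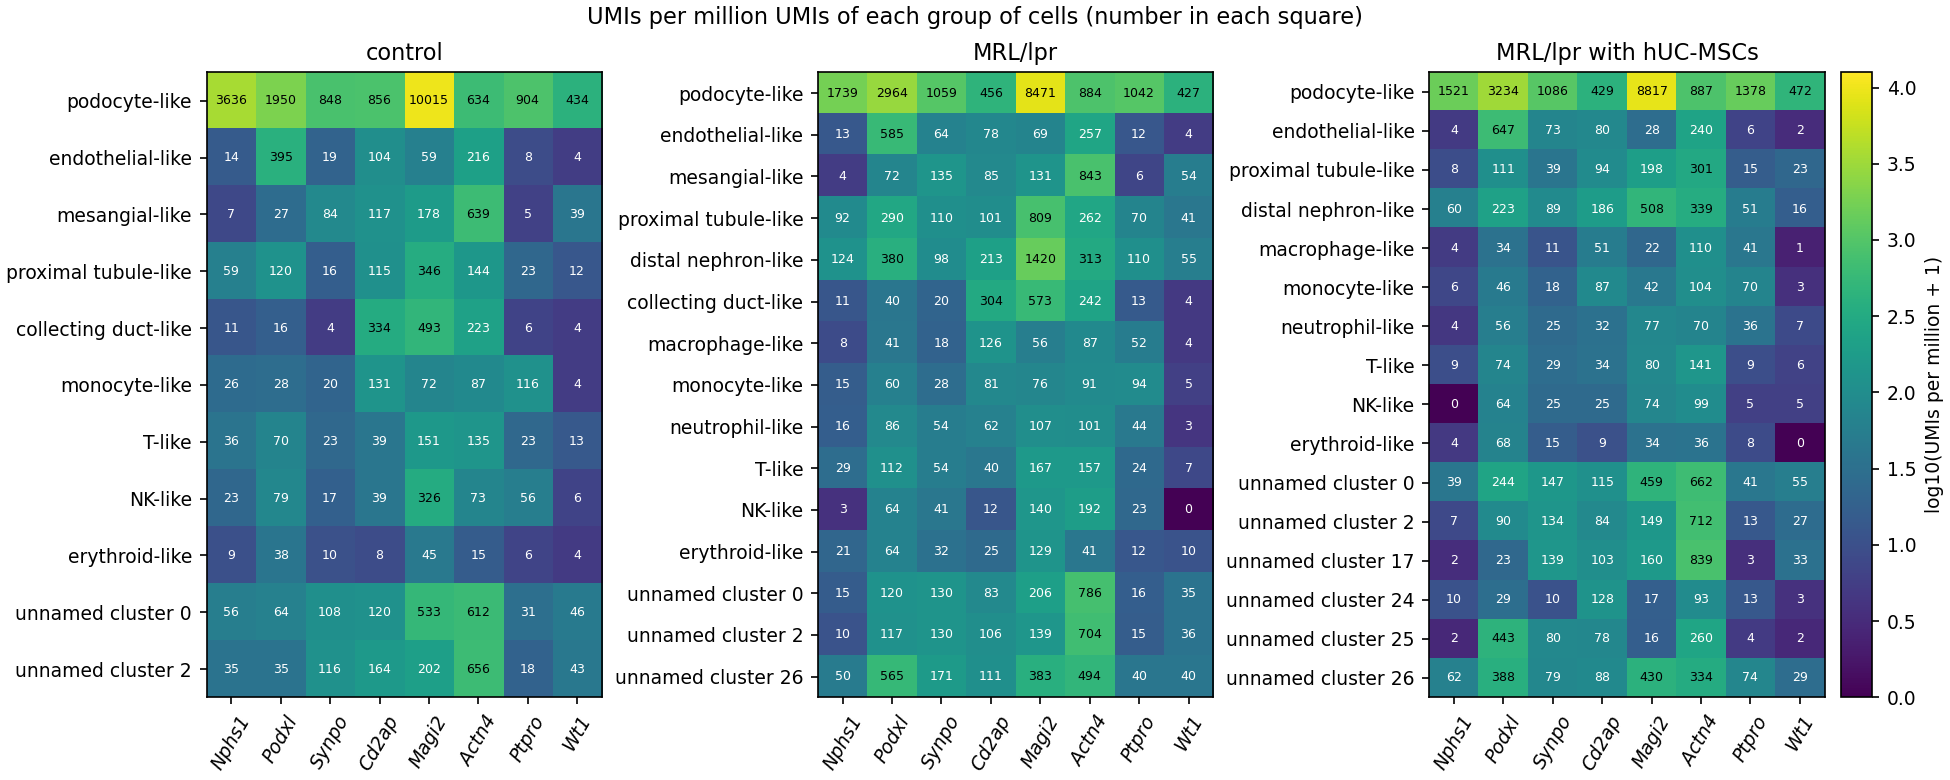
Level of each gene in every group of at least 50 cells, by library, in CPM (number in each square, colour on a log10 scale). The podocyte-like row is the brightest in every column except *Actn4*, where mesangial-like cells and unnamed clusters reach similar values.

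*Podxl* is also a gene of the endothelial surface, and endothelial-like cells were second in all 3 libraries at 395, 585 and 647 CPM. The podocyte-like level was 4.93, 5.07 and 5.00 times as high, a nearly constant factor while both levels were higher in the MRL/lpr libraries. This factor pools clusters that the libraries filled unequally. Within clusters *Podxl* in MRL/lpr over control was 2.18-fold and 1.86-fold higher in podocyte-like cells and 1.32-fold to 1.88-fold higher in endothelial-like cells. Over 2-fold above the level expected in endothelial-like cells from free podocyte RNA were 3 of the 8 in control, 3 in MRL/lpr and 1 in treated mice, where 90.4%, 67.9% and 42.0% of all genes were. They were *Podxl*, *Actn4* and *Cd2ap* in control and MRL/lpr mice and *Podxl* alone in treated mice. Endothelial-like *Podxl* was 5.42, 3.84 and 3.26 times the level expected from free podocyte RNA, which was taken from 4 podocyte markers. By the markers of all other cell types the 8 gave 3, 4 and 4 such genes, with *Synpo* the one added in MRL/lpr mice and *Synpo*, *Actn4* and *Cd2ap* those added in treated mice. The share of all genes by this estimate was not computed, so these counts stand without a background. *Podxl* was counted in 33.1%, 42.9% and 45.3% of thinned endothelial-like cells.

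*Synpo* in endothelial-like cells was 19.5 CPM in control mice (17.9 to 21.2), 63.5 in MRL/lpr mice (60.1 to 67.1) and 73.0 in treated mice (69.3 to 76.9). Control mice were low and both MRL/lpr libraries high, by 3.26-fold and 3.75-fold. The endothelial-like cells lay in 6 clusters that the libraries filled unequally, clusters 6 and 8 mostly with control, 7 and 11 mostly with MRL/lpr and 9 and 10 mostly with treated cells. Within clusters, values added after seeing the data, *Synpo* was 1.59-fold to 3.46-fold higher in MRL/lpr over control, at least 2-fold in 5 of the 6, and 2.75-fold to 5.01-fold higher in treated over control. It was the 1 member of 8 at least 2-fold higher in MRL/lpr over control endothelial-like cells, where 10.7% of 14921 genes were, and the 1 in treated over control, where 14.5% of 15058 were. In treated over MRL/lpr endothelial-like cells 5.82% of genes were that much higher and 0 of the 8. The endothelial-like *Synpo* levels were 0.77, 1.15 and 1.29 times what free podocyte RNA would give, and whether these molecules came from podocytes was not tested. That expected level rests on the 4 podocyte markers, which put free RNA at 9.32%, 29.3% and 48.9% of endothelial-like UMIs. From 46 to 51 markers of all other cell types, an estimate added after seeing the data, it was 3.97%, 9.95% and 8.95%, and *Synpo* was then 1.80, 3.40 and 7.02 times the expected level. The expected level also differs by single marker. In endothelial-like cells the single markers gave a share of free RNA of 0.0286 to 0.176 in control, 0.064 to 0.68 in MRL/lpr and 0.0502 to 1.21 in treated mice. A value above 1 cannot be read as a share.

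The genes most restricted to podocyte-like cells were low in endothelial-like cells. *Nphs1* was at 14.0, 12.6 and 4.05 CPM there, *Magi2* at 59.4, 68.7 and 27.9 and *Ptpro* at 8.13, 12.1 and 5.64. These 3 were at least 2-fold lower in treated than in untreated MRL/lpr endothelial-like cells, where 4.42% of 14853 genes were. These cells lay mostly in different clusters of the 6, and within clusters *Magi2* was as much lower in 6 of 6, *Nphs1* in 4 of 4 and *Ptpro* in 3 of 5 with enough UMIs, some with only 1 to 3 treated UMIs. In treated over control cells 2 of the 8, *Nphs1* and *Magi2*, were as much lower, beside 6.79% of all genes, and in MRL/lpr over control cells 0 of the 8, beside 6.1%. Within clusters, for treated over control, *Magi2* was as much lower in 6 of 6 and *Nphs1* in 2 of 4 with enough UMIs. Levels of the 3 genes were 0.134 to 0.387 times the expected one by the 4 podocyte markers and 0.733 to 1.1 times by the markers of all other cell types. None of them is read as expressed by endothelial-like cells.

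Mesangial-like cells, which numbered 407 in control, 369 in MRL/lpr and only 7 in treated mice, are given for the first pair. They are 1 cluster only. Clusters 0, 2 and 17 also held 5 to 7 mesangial markers but stayed unnamed for their leading genes, and had 97, 1778 and 380 treated cells. The mesangial-like cells held *Wt1* at 39.4 and 54.1 CPM in control and MRL/lpr mice, where cluster 0 held 46.4 and 35.3, in the other order, and cluster 2 held 43.5 and 36.1, with overlapping intervals. Mesangial-like *Synpo* was at 84.2 and 135. The mesangial-like levels were, for *Wt1*, 18.5 and 17.6 times, and for *Synpo* 15.3 and 11.2 times, the level expected from free podocyte RNA. *Cd2ap* there was 31.7 and 12.4 times and *Actn4* 94.1 and 42.8 times the expected level, while *Nphs1* was below it at 0.747 and 0.578. Mesangial cells are contractile cells with an actin apparatus of their own.

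*Ptpro* was counted in leukocytes. Monocyte-like cells held 116, 94.2 and 69.7 CPM in control, MRL/lpr and treated mice, 9.67, 8.71 and 8.79 times the expected level. Macrophage-like cells held 52.3 CPM in MRL/lpr and 41 in treated mice, 7.51 and 9.87 times. *Cd2ap* also exceeded the expected level in monocyte-like cells (13.5, 8.03 and 8.95 times) and in macrophage-like cells (19.4 and 10.1 times), whereas *Nphs1* was at 1.1 to 1.39 times in both.

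The podocyte-like cells were only part of where these molecules lay. In control mice 81.1% of all *Nphs1* UMIs of the library were in podocyte-like cells, in MRL/lpr mice 57.6% and in treated mice 45.1%, while the library totals were 73487, 18465 and 3786. For *Actn4* the shares were 29.0%, 13.8% and 3.10%, and for *Cd2ap* 54.1%, 20.7% and 5.68%. Of the UMIs of all genes, podocyte-like cells held 17.3%, 5.92% and 1.24%, as these cells were fewer in the MRL/lpr libraries. Barcodes above 100 and below 1000 UMIs held 4.89% of *Nphs1* UMIs in control mice, 21.6% in MRL/lpr and 27.8% in treated mice, beside 7.43%, 21.7% and 20% of the UMIs of all genes.

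**Figure D4:**
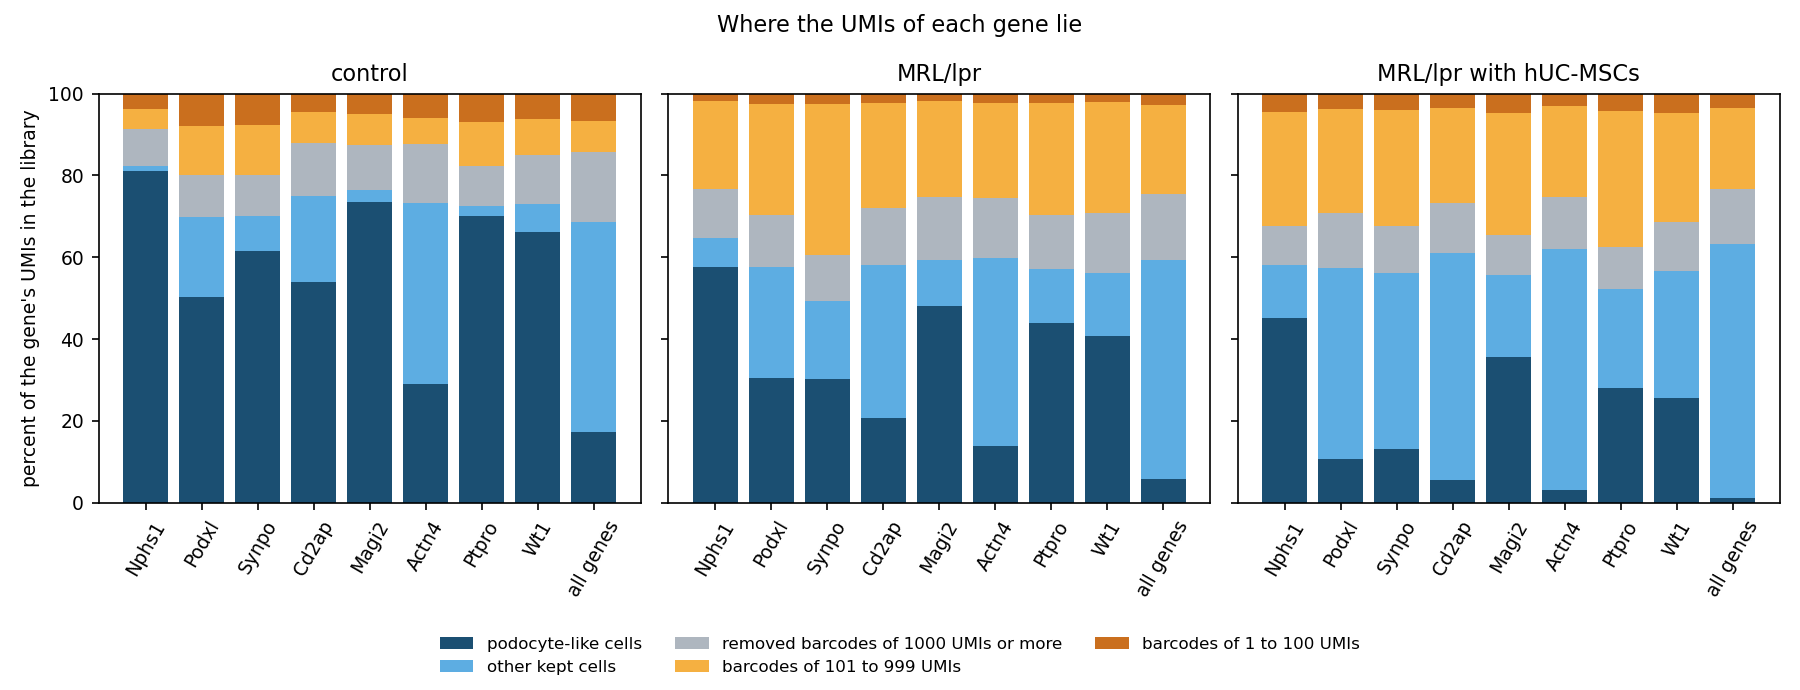
Percent of each gene's UMIs in a library that lie in podocyte-like cells, other kept cells, removed barcodes and barcodes of fewer UMIs, with all genes as the last bar. The podocyte-like part of *Nphs1* goes from 81.1% in control to 57.6% in MRL/lpr and 45.1% in treated mice. That of all genes goes from 17.3% to 5.92% and 1.24%.

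In barcodes of 1 to 100 UMIs, whose RNA comes mostly from outside cells, *Nphs1* was at 442, 115 and 54.4 CPM in control, MRL/lpr and treated mice. *Magi2* was at 1700, 720 and 424 and *Podxl* at 783, 519 and 406. *Actn4* stayed at 336, 306 and 307. The podocyte-like level of *Nphs1* was 8.22, 15.1 and 27.9 times that of these barcodes, so free RNA was furthest below the cells in the library with the fewest podocyte-like cells.

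Single podocyte-like cells held most of the 8 genes at once. Thinned to 1000 UMIs, they held a median of 5 of the 8 in each library, and 92.0% of control, 89.8% of MRL/lpr and 92.5% of treated cells held at least 4. In endothelial-like cells the median was 1 and the share with at least 4 was 0.105%, 0.29% and 0.104%. Without thinning, 82.4%, 78.2% and 73.5% of podocyte-like cells held all 8. The number of these genes per cell was thus nearly the same in MRL/lpr as in control mice, while *Nphs1* and *Cd2ap* levels were lower.

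**Figure D5:**
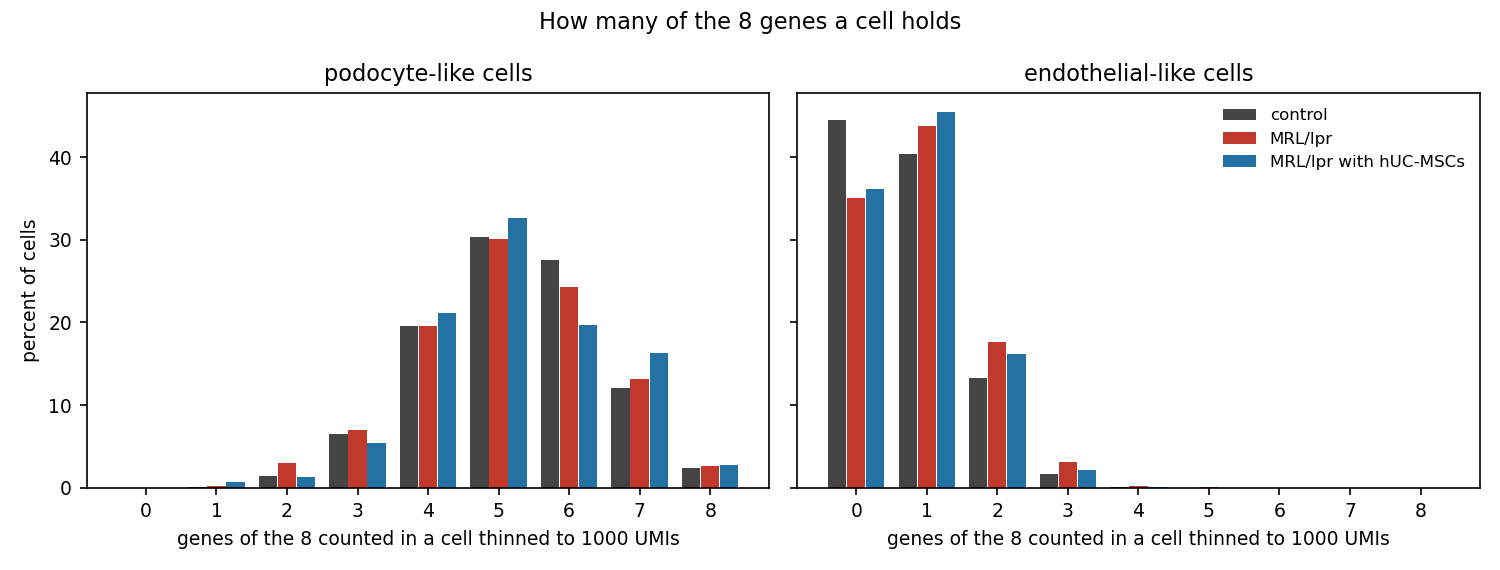
Percent of podocyte-like and endothelial-like cells by how many of the 8 genes were counted in a cell thinned to 1000 UMIs, for each library. Podocyte-like cells peak at 5 genes in all 3 libraries and endothelial-like cells at 0 or 1.

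Across podocyte-like cells of a library, levels of pairs of the 8 genes gave Pearson's r of up to 0.55. The points are cells of 1 library that share its depth and free RNA, so these are descriptions. Pearson's r of *Nphs1* with *Magi2* was 0.48 over 2362 control cells, 0.30 over 821 MRL/lpr cells and 0.21 over 147 treated cells. That of *Nphs1* with *Podxl* was 0.20, 0.38 and 0.55. The pairs that include *Synpo* were at most 0.22 in all 3 libraries.

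Over 42 sums of a cell group in a library, which share libraries and free RNA, the genes with the most similar pattern were found among 14468 genes by Pearson's r of log2(CPM + 10). For *Nphs1* they were *Cdkn1c*, one of the podocyte markers used to name the cells (0.979), *Fgfbp1* and *Gm29266*. For *Podxl* they were *Clic5*, another of those markers (0.973), *Tmem108* and *Nebl*, and for *Wt1* *Arhgap28* (0.970), *Nbl1* and *Hoxc8*. *Synpo* was nearest to *Nes* (0.945), *Magi2* to *Col4a3* (0.939), *Ptpro* to *Nupr1* (0.898) and *Cd2ap* to *Itm2b* (0.872). *Actn4*, the least restricted of the 8, was nearest to *Selenof* (0.953), *Cyb5r3* and *Tax1bp3*.

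Other genes of the same structures were counted as whole lists, in podocyte-like cells. Of 15 measured slit diaphragm partners, 0 were past 2-fold in MRL/lpr over control and 0 in treated over MRL/lpr mice, with a median log2 ratio of −0.16 and 0.15. Of all genes 9.07% were higher and 6.66% lower in the first of these comparisons and 4.1% and 4.45% in the second, so 0 of 15 is near the background. In treated over control mice 2 were higher (10.8% of all genes were), *Fat1* (94.2, 142 and 191 CPM in control, MRL/lpr and treated mice) and *Prkci* (23.6, 40.4 and 53.5), which were named after their values were seen. *Tjp1*, which encodes the junction scaffold ZO-1, was at 490, 447 and 560 CPM in control, MRL/lpr and treated mice.

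Of 27 measured actin and adhesion genes, 1 was higher and 0 lower in MRL/lpr over control, 0 were called in treated over MRL/lpr mice, and 3 were higher and 1 lower in treated over control mice. The shares of all genes were 9.07% higher and 6.66% lower in the first and 10.8% and 9.64% in the last of these comparisons, so these counts are near or under the background. Besides *Sh3kbp1*, the higher ones were *Actn1* (49.0, 66.7 and 100.7 CPM) and *Tpm1* (352, 606 and 887), named after their values were seen. The lower one was *Ezr*, which encodes ezrin, the protein that ties podocalyxin to actin. It stood at 787, 423 and 337 CPM in control, MRL/lpr and treated mice, and its partner *Slc9a3r2* at 817, 543 and 464. Over all podocyte-like cells, both were ordered like *Nphs1*, whereas *Podxl*, whose protein they bind, was ordered the other way. *Itgb1*, the β1 integrin that anchors the foot process to its basement membrane, was at 839, 712 and 1075 CPM. The gene past 2-fold in MRL/lpr mice was *Sh3kbp1*, a relative of *Cd2ap*, at 2.38, 8.66 and 16 CPM in podocyte-like cells, below the 30.3, 60.4 and 81.0 CPM of barcodes of 1 to 100 UMIs. Free RNA was an estimated 2.53%, 6.12% and 6.51% of podocyte-like UMIs, so the level of these barcodes is not the one expected from it.

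Of 14 podocyte transcription factors, 0 were past 2-fold in either direction in MRL/lpr over control. *Tcf21* was at 1185, 845 and 838 CPM in control, MRL/lpr and treated mice and *Dach1* at 704, 664 and 756.

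Of 13 measured podocyte injury genes, 6 were higher and 1 lower in MRL/lpr over control, and of 12, 7 were higher and 1 lower in treated over control mice. In treated over MRL/lpr mice 5 of 11 were higher. Of all genes 9.07%, 10.8% and 4.1% were as much higher in these 3 comparisons, and 6.66%, 9.64% and 4.45% as much lower. The median log2 ratios were 0.63, 1.41 and 0.98 in the same order. This list, like the other lists, was chosen with earlier results of these data known, so its counts are descriptions and not a test. The lower ones, named after their values were seen, were *Cd44* in MRL/lpr over control and *Angptl4* in treated over control mice. *Cd44* stood at 7.01, 3.43 and 12.5 CPM in control, MRL/lpr and treated mice and was one of the 5 higher in treated over MRL/lpr mice, from 21 and 14 UMIs. *Angptl4* stood at 5.49, 2.78 and 1.78 CPM, the last from 2 UMIs, with a log2 ratio of −1.62 (−4.69 to 0.27). *Ccn2*, which encodes connective tissue growth factor, was at 703, 1596 and 1910 CPM in control, MRL/lpr and treated podocyte-like cells. It was at 38.7 to 42.6 CPM in endothelial-like cells. *Vim*, which encodes vimentin, was at 1327, 2010 and 1856 CPM. *Nes*, which encodes nestin, another intermediate filament protein of podocytes, was lower outside control mice, at 804, 557 and 554. These podocyte-like levels, like those of the other lists, pool clusters that the libraries filled unequally. Levels within clusters are not given for them.

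*S100a6*, a calcium-binding protein gene of the same list, was at 31.4 CPM in control, 170 in MRL/lpr and 2858 in treated podocyte-like cells. It was counted in 10.5%, 36.5% and 72.1% of them, and in treated mice it stood at 2205 CPM in cluster 4 and 3077 in cluster 5. Endothelial-like cells, at 1211, 1794 and 3362 CPM, and barcodes of 1 to 100 UMIs, at 768, 1748 and 2381, held more of it in control and MRL/lpr mice, as did endothelial-like cells in treated mice, and the part of other cells' RNA in these values was not tested. *Lgals3*, at 1.89, 23.9 and 116 CPM, was below its level in barcodes of 1 to 100 UMIs in all 3 libraries. That level is not the one expected from the estimated share of free RNA in podocyte-like cells.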

How the data were processed

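RNA of single glomerular cells in droplets was counted in 3 groups, each a library named from its label. The values used are the raw UMI counts per gene and barcode that the authors deposited for all barcodes, empty ones included. Per the file headers they were made with Cell Ranger 4, another version than the methods give, and the submitters' processing notes name STAR, Cell Ranger and mm10. Gene positions are those of GENCODE M21 (GRCm38), which holds 32158 of the 32285 gene IDs. *Nphs1*, *Magi2*, *Actn4* and *Ptpro* overlap other annotated genes, such as the antisense *Nphs1os*, and whether reads were counted by strand is not given in the sources used here.

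Barcodes with at least 1000 UMIs and at most 10% mitochondrial UMIs were kept. Per library, Scrublet scores marked 0.8% per 1000 barcodes as doublets (971 control, 1593 MRL/lpr and 2201 treated), which were removed. The methods' limits of 200 to 3000 genes were an alternative, which left 7839, 10898 and 13059 cells, and their ribosomal limit was not used. From 2000 variable genes without the 8 members, 10 principal components and a graph of 15 neighbours gave 27 Leiden clusters (resolution 1.0, seed 0, no integration). A cluster was named "-like" from at least 3 markers of a class, each found in 10% or more of the cluster and exceeding other cells 2-fold. Clusters 0, 2, 17, 24, 25 and 26 stayed unnamed and were each described as a group of their own, a choice made after seeing the data. The rule for naming list genes was the 4 with most UMIs in podocyte-like cells, and any over 4-fold between libraries. Some genes that this rule names are not reported here. The 8 members and all gene lists were chosen with earlier results of these data known.

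UMIs were summed per group and library. Sums were given as CPM with exact Poisson 95% intervals, ratios with exact conditional binomial intervals for genes with at least 20 UMIs in both libraries together, and shares with Clopper-Pearson intervals. A gene at 0 was set to 3 counts. With 1 library per group, no test between groups was possible. The level expected from free podocyte RNA is the level in barcodes of 1 to 100 UMIs times the share given by *Thsd7a*, *Rhpn1*, *Ildr2* and *Tcf21*. The ratio step was tested on simulated data. Python 3.11.15, numpy 2.4.6, scipy 1.17.1, pandas 2.3.3 and scanpy 1.11.5 were used.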

Additional observations from a re-analysis of the deposited data

How the results depend on the processing

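Each log2 ratio of the 8 genes was computed under 14 alternatives and in clusters 4 and 5 alone. Under the 14, *Nphs1* was below control at −1.19 to −0.99 for MRL/lpr, past 2-fold in 13, and at −1.55 to −1.20 for treated mice, past 2-fold in 14. *Cd2ap* was at −0.98 to −0.83 and at −1.17 to −0.92, and *Podxl* at 0.50 to 0.68 and at 0.42 to 0.79. Clusters 4 and 5 lay outside these ranges, with −0.68 and −0.38 for *Nphs1*, −0.62 and −0.58 for *Cd2ap* and 1.12 and 0.89 for *Podxl* in MRL/lpr over control, and −1.03 and −0.65, −0.78 and −0.74, and 0.98 and 0.96 in treated over control. *Magi2* turned from −0.24 to 0.17 in both and from −0.18 to 0.14 and 0.12. The number of genes past 2-fold in MRL/lpr over control was 1, *Nphs1*, and 0 relative to the median of all genes or in cluster 5 alone. In cluster 4 it was also 1, but *Podxl*. In treated over control it was 1, but 2 with a UMI minimum of 2500, a mitochondrial limit of 20%, doublets kept, thinning, or podocyte-like cells taken by at least 4 markers, and 0 in cluster 5 alone. The median ratio of MRL/lpr over control was 0.032 with 200 to 3000 genes, −0.0092 by at least 4 markers, 0.35 in cluster 4 and also in cluster 5, and 0.17 relative to all genes. That of treated over MRL/lpr was −0.056 with doublets kept and −0.11 by at least 4 markers. That of treated over control was 0.11, −0.048, 0.38 and 0.35 with 200 to 3000 genes, by 4 markers and in clusters 4 and 5. Genes at least 4-fold above every other group numbered 0 in each library from 500 UMIs on, and 0 in control and MRL/lpr mice with doublets kept, where an added unnamed cluster held them. Genes over 2-fold above the level expected from free podocyte RNA in endothelial-like cells numbered 3, 3 and 1 in control, MRL/lpr and treated mice, and with single markers 0 at the fewest in MRL/lpr and treated mice and 4 at the most in treated mice, and 4 in treated mice by the markers of all other cell types. The share of all genes was not computed with single markers or by the markers of all other cell types. The podocyte-like share was 22.5%, 5.22% and 0.711% from 500 UMIs on and 24.6%, 8.55% and 1.8% from 2500, in control, MRL/lpr and treated mice. With 200 to 3000 genes it was 25.0% in control and 5.85% in MRL/lpr mice, with doublets kept 7.07% in MRL/lpr and 1.52% in treated mice, and by at least 4 markers 8.11% and 1.6%. The causes of these moves were not tested. Clusters 4 and 5 alone hold fewer cells, and the libraries filled them unequally. Values by cluster and by all other markers were chosen after seeing the data. With 147 treated podocyte-like cells and 481 *Cd2ap* UMIs in them, depth limits the treated ratios. No paired analysis was possible because each group has 1 library.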
